A study of Mus musculus with 4 samples.

Results

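The 8 endoderm genes *Foxa1*, *Foxa2*, *Foxa3*, *Foxq1*, *Hnf4a*, *Gsc*, *Hhex* and *Cxcr4* were examined for Gata4 peaks in mesoderm cells. A peak was taken when the authors' lists named one of these genes for it, which they did within 5 kb, or when its position lay within 50 kb of the gene body on mm9. This gave 24 of the 20410 peaks of WT Flk1(+) cells and 18 of the 22733 peaks of DKO Flk1(+) cells, 42 of 43143 in all. The 8 genes are among 22238 protein-coding genes of the annotation.

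The data are Gata4 ChIP-seq profiles of mouse embryonic stem (ES) cells and of mesoderm derived from them. All cells carried Gata4GR, in which Gata4 is joined to the hormone-binding part of the human glucocorticoid receptor and so becomes active on addition of dexamethasone (Dex). Both genotypes derive from the J1 ES line of 129 background. WT cells are wild type, and DKO cells carry deletions of the de novo DNA methyltransferase genes *Dnmt3a* and *Dnmt3b* (Dnmt3a-/-Dnmt3b-/-). For WT Flk1(+) and DKO Flk1(+), cells were grown on OP9 stroma to day 4.5, given 100 nM Dex for 3 hr and sorted with magnetic beads for Flk1, a surface receptor of mesoderm progenitors. The controls, WT ES and DKO ES, were the undifferentiated cells of either genotype, to which no Dex was given. The labels name 1 clone for each genotype, and Gata4GR was driven by the CAG promoter. The 3 antibodies used together were raised against GATA4 and were not specific to the fusion, so that Gata4GR and the cells' own Gata4 cannot be told apart. Each of the 4 conditions had 1 library, without a replicate, so the values describe single libraries, and no test between WT and DKO was possible. ChIP profiles carry no RNA level, so the sorted cell type could not be checked against its marker genes.

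Gata4 is a zinc-finger transcription factor that binds GATA sequences and takes part in the formation of primitive endoderm, heart and liver. Foxa1, Foxa2 and Foxa3 are forkhead factors that open chromatin at endoderm and liver genes, often at elements that Gata factors bind as well. Hnf4a is a nuclear receptor of visceral endoderm and hepatocytes, Gsc and Hhex are homeobox repressors of the organizer and the anterior endoderm, Foxq1 is a further forkhead factor, and Cxcr4 is not a transcription factor but the receptor of the chemokine Cxcl12, widely used as a surface marker of definitive endoderm.

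Sequences are shown for peaks with a Gata motif and for peaks at the starts of the genes. The first set holds, for each gene with such a peak, the highest peak that contained the Gata motif, AGATAA or TGATAA on either strand, from the peak position to the matches. Sequences are mm9, plus strand, 5′ to 3′, and capitals mark the motif, which reads TTATCT or TTATCA where it lies on the minus strand. For *Foxq1*, where the peak overlaps an annotated UTR of a neighbouring gene, only the 30 bases around the motif are given.
Foxa1, WT peak upstream of the start, chr12:58647825-58647924: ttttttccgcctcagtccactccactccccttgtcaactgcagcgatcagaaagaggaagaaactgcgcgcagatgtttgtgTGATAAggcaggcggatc
Foxa2, DKO peak far upstream, chr2:147891742-147891930: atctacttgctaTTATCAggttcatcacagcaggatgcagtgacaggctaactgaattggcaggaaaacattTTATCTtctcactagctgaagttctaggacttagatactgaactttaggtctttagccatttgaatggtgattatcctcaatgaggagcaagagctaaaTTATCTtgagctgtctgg
Foxq1, DKO peak at the start, chr13:31649626-31649655: tcagcgattcaaTTATCAccagggatttcc
Gsc, WT peak far upstream, chr12:105730519-105730727: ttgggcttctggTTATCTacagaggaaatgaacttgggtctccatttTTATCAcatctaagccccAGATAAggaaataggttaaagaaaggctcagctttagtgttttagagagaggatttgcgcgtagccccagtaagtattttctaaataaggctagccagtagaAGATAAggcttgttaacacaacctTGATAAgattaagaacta
Hhex, DKO peak far downstream, chr19:37556349-37556415: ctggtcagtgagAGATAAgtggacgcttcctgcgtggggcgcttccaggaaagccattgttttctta
Cxcr4, WT peak far downstream, chr1:130446548-130446610: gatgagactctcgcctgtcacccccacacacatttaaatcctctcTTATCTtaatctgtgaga

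The second set holds the 61 bases centred on peaks within 1 kb of the start of one of the genes, with CpGs in capitals. It is shown for the CpGs of such peaks. There were 3 WT and 5 DKO peaks of this kind, with a median of 22 and 49 CpGs in the windows of 250 bp to either side, and 1 WT and 1 DKO peak, at *Foxa1* and *Foxq1*, held the motif in its window. Whole-list peaks within 1 kb of a protein-coding start had medians of 36 (WT) and 38 (DKO) CpGs. The DKO peaks of *Foxq1* and *Gsc* lie in annotated UTRs and are left out of this set.
Foxa1, WT peak upstream, chr12:58647807-58647867: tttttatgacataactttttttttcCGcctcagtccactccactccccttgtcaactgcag
Foxa3, DKO peak upstream, chr7:19609534-19609594: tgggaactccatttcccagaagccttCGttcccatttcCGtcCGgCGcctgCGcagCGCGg
Foxa3, second DKO peak upstream, chr7:19609645-19609705: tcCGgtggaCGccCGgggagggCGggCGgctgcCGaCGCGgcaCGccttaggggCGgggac
Gsc, WT peak upstream, chr12:105711840-105711900: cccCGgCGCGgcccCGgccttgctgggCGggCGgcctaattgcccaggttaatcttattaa
Cxcr4, WT peak upstream, chr1:130489072-130489132: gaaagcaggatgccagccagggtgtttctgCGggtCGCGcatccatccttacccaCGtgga
Cxcr4, DKO peak in the intron, chr1:130488037-130488097: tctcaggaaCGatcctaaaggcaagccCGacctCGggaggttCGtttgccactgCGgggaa

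Within 5 kb of the gene body, 6 of the 8 genes had a WT peak, and a DKO peak was found for 5. Over all protein-coding genes these shares were 39.4% for WT and 49.1% for DKO. *Foxa3*, *Gsc*, *Hhex* and *Cxcr4*, 4 genes, had peaks of both lists. *Foxa1* and *Foxa2* had a WT peak alone, *Foxq1* had a DKO peak alone, and *Hnf4a* had neither. Of the 22238 genes, 7092 had both, 1671 a WT peak alone, 3819 a DKO peak alone and 9656 neither. A site enters a list only with a height of at least 5.0 and an enrichment over ES of at least 3.0, and the lists hold no height of the other genotype at a site that was called in 1 list, so that a peak missing from a list is not a measured absence of Gata4. Height here is that of the authors' read density profile at the peak, and peaks of the 2 lists were counted as shared, or overlapping, when their positions lay within 500 bp. Within 50 kb, the counts were 6 of 8 for WT and 7 of 8 for DKO, against 67.1% and 70.4% of all genes.

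The number of peaks within 50 kb varied widely among the 8 genes. In the WT list *Cxcr4* had 8 peaks, a number that 2.55% of all genes reached. *Gsc* had 6 WT peaks, which 6.84% of genes reached, and *Foxa3* had 5, which 11.3% reached. In the DKO list *Foxa3* had 6 peaks, which 17.3% of genes reached, and *Cxcr4* had 4, which 32.5% reached. The other genes had between 0 and 2 peaks in either list, where the median over all genes was 1 WT peak and 2 DKO peaks.

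**Figure D1:**
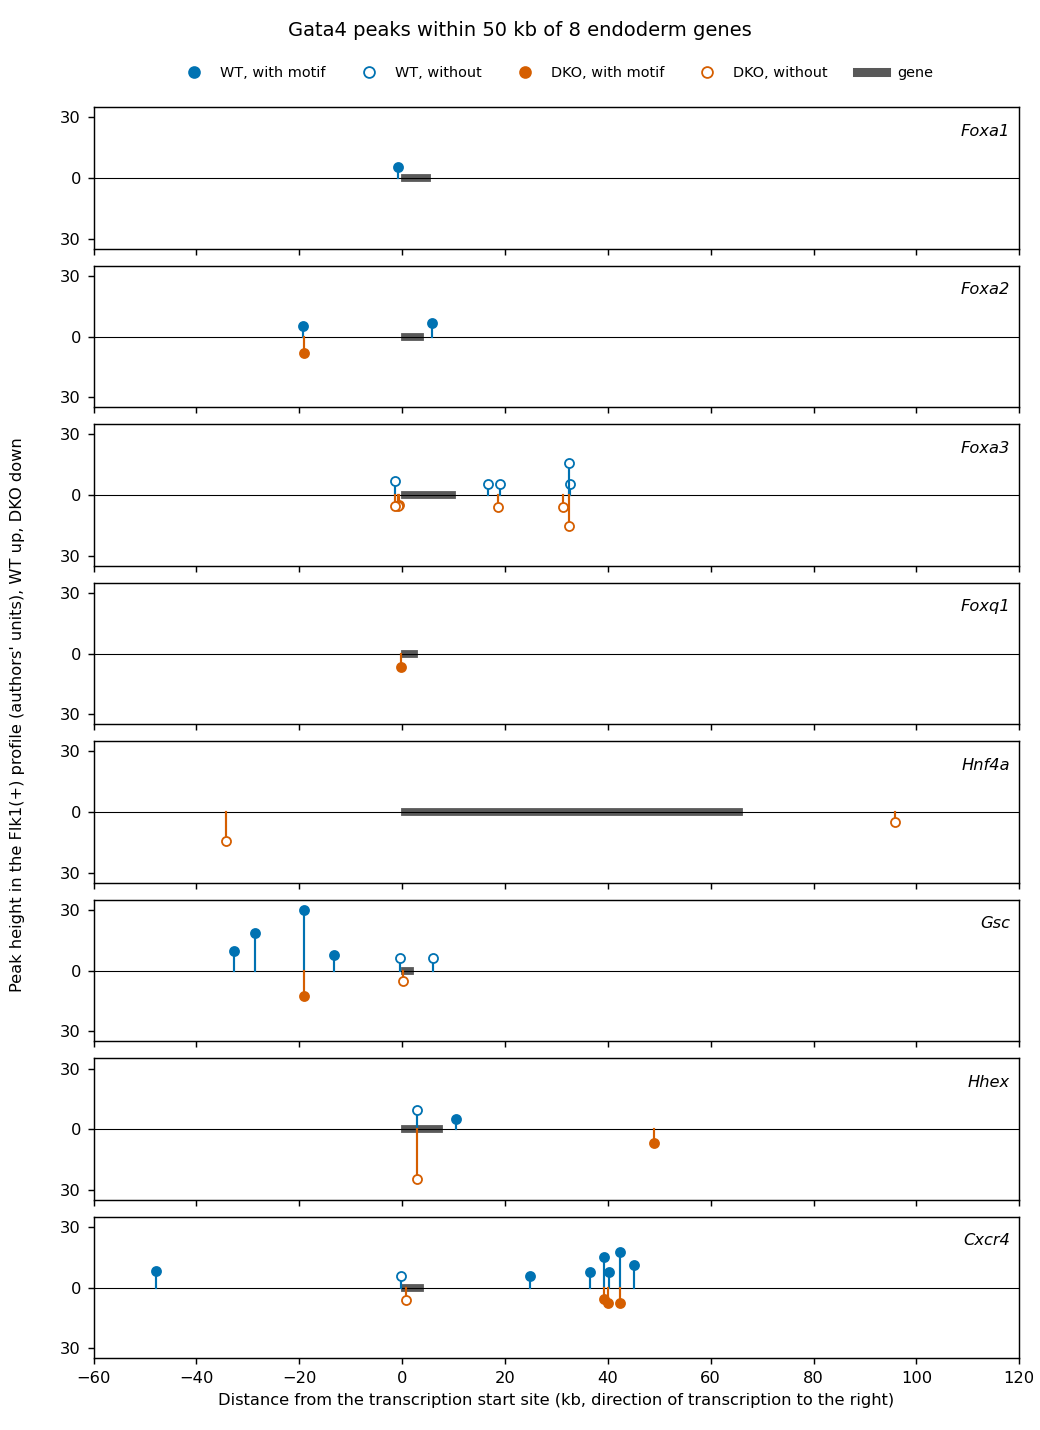
Peaks within 50 kb of the 8 genes, 1 panel per gene. The x axis gives the distance from the transcription start site in kb, with transcription to the right, and the y axis gives the peak height in the Flk1(+) profile in the authors' units, WT upward in blue and DKO downward in orange. Filled points hold AGATAA or TGATAA in the window of 250 bp to either side, open points do not, and the grey bar is the gene body. The highest WT peak, 30.2, lies upstream of *Gsc*, and the highest DKO peak, 24.5, lies within *Hhex*.

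The 3 Foxa genes differed in where their peaks lay. *Foxa1* (chr12:58641618-58647108, minus strand) had 1 WT peak, at chr12:58647837, 729 bp upstream of its start. It was 5.66 high in WT Flk1(+) and 1.45 in WT ES, an enrichment of 3.90, and ranked 12652 of 20410 in the authors' order, in which 1 is the highest. Its window, the 250 bp to either side of the position, held 22 CpGs and 1 motif match 72 bp from the centre. No DKO peak lay within 50 kb of *Foxa1*, and the nearest was 310114 bp away.

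*Foxa2* (chr2:147868613-147872705, minus strand), required for definitive endoderm, had 1 WT peak within 5 kb, 1756 bp beyond its 3′ end at chr2:147866857. This peak was 6.59 high in WT Flk1(+) and 0.896 in WT ES, ranked 8349, and held 15 CpGs and 1 motif match, with no DKO peak overlapping it. The other peak of *Foxa2* lay 19.1 to 19.3 kb upstream and was called in both genotypes, at chr2:147891977 in WT and chr2:147891794 in DKO, 183 bp apart. There the height was 5.40 in WT Flk1(+) and 8.11 in DKO Flk1(+), against 0.867 in WT ES and 2.64 in DKO ES. The DKO height was thus 1.50 times the WT height, whereas the enrichment over ES was 5.40 in WT and 3.07 in DKO, the opposite order. This window held few CpGs, 1 around the WT position and 2 around the DKO position, and 3 motif matches within 165 bp, those shown above.

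*Foxa3* (chr7:19598631-19608887, minus strand), the Foxa gene most associated with liver, had 5 WT and 6 DKO peaks within 50 kb, of which none held the motif, although its region contains 63 matches of the motif. Within 5 kb there were 1 WT peak and 3 DKO peaks, all upstream of the start and nearer to the start of *Sympk*, a neighbouring gene that encodes the RNA-processing protein symplekin. The WT peak at chr7:19610249 lay 1362 bp from the *Foxa3* start and 523 bp from the *Sympk* start, within a *Sympk* intron, with heights of 6.73 in WT Flk1(+) and 2.03 in WT ES and a rank of 19450. The DKO peak at chr7:19610281, 32 bp away, had heights of 5.58 and 1.80 in DKO Flk1(+) and DKO ES and a rank of 22386 of 22733. The windows at these positions held 26 and 27 CpGs.

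The other DKO peaks of this promoter region, at chr7:19609564 and chr7:19609675, lay 677 and 788 bp upstream of *Foxa3* and 162 and 51 bp from the *Sympk* start. They were 5.11 and 5.19 high in DKO Flk1(+), with 1.05 and 1.71 in DKO ES. Their windows held 49 and 58 CpGs, and no WT peak overlapped them, the nearest WT position being 685 and 574 bp away. The highest peak near *Foxa3* in both lists lay 32.4 kb downstream of its start and 135 bp (WT) or 131 bp (DKO) from the start of *Mypop*. Its height was 15.7 in WT Flk1(+) and 15.2 in DKO Flk1(+), with 3.17 in WT ES and 2.40 in DKO ES and 32 CpGs in either window, and the DKO height was 0.970 times the WT height.

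The remaining peaks near *Foxa3*, 3 WT and 2 DKO, were 5.26 to 5.69 high in WT and 5.97 and 6.07 high in DKO. They lay 389 to 2698 bp from the starts of *Mypop*, *Irf2bp1* or *Gm10676*. None of the 11 peaks taken for *Foxa3* had the *Foxa3* start as its nearest protein-coding start.

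*Foxq1* (chr13:31650039-31652839, plus strand) had 1 DKO peak, at chr13:31649840, 199 bp upstream of its start and inside the 3′ UTR of *A530084C06Rik*, a gene on the other strand. The height was 6.52 in DKO Flk1(+) and 1.89 in DKO ES, an enrichment of 3.45 and a rank of 20339, among the lower-ranking peaks of the list. The window held 45 CpGs and 1 motif match 200 bp from the centre, near its edge. The nearest WT peak lay 58780 bp from the gene.

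*Hnf4a* (chr2:163332544-163398646, plus strand) had no peak of either list within 5 kb. Its 2 DKO peaks within 50 kb lay at the starts of other genes. The higher, at chr2:163298246, 34.3 kb upstream of *Hnf4a* and 81 bp from the start of *2310001K24Rik*, was 14.3 high in DKO Flk1(+) and 3.35 in DKO ES, ranked 5165 and held 47 CpGs. The lower, 433 bp from the start of *Ttpal*, was 5.05 high. Neither held the motif, of which the *Hnf4a* region contains 148 matches. The nearest WT peak was 72235 bp from the gene.

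*Gsc* (chr12:105709419-105711537, minus strand) had low peaks at the gene and high peaks upstream of it. At the promoter the WT peak at chr12:105711870, 333 bp upstream, was 6.23 high in WT Flk1(+) and 0.640 in WT ES, and the DKO peak at chr12:105711372, 165 bp into the gene and within its 5′ UTR, was 5.31 high in DKO Flk1(+) and 1.63 in DKO ES. These positions were 498 bp apart, at the limit of what was counted as overlapping, and their windows held 19 and 65 CpGs and no motif. A WT peak 3921 bp beyond the 3′ end, at chr12:105705498, was 6.08 high in WT Flk1(+) and 1.46 in WT ES and was not called in DKO. It held 8 CpGs and no AGATAA or TGATAA.

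The highest peak near any of the 8 genes in the WT list lay 19.1 kb upstream of *Gsc*, at chr12:105730626 in WT and 17 bp away at chr12:105730643 in DKO. Its height was 30.2 in WT Flk1(+) and 12.4 in DKO Flk1(+), and 7.07 in WT ES and 1.96 in DKO ES. The WT height was 2.43 times the DKO height, but the WT ES height was also the highest ES value near any of the genes, and the enrichment over ES was 4.27 in WT and 6.34 in DKO, again in the opposite order. The peak ranked 2975 in WT and 2556 in DKO. It held 5 motif matches, the most of any peak near the 8 genes, spread over 185 bp on both strands as shown above, and 10 CpGs.

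The 3 other upstream WT peaks of *Gsc*, at 13.2, 28.6 and 32.7 kb, each held 1 motif match within 33 bp of the centre and between 6 and 13 CpGs. None was overlapped by a DKO peak, and the nearest DKO position was 5919 bp or more away. The one at 28.6 kb was 18.7 high in WT Flk1(+) and 1.57 in WT ES, an enrichment of 11.9 and a rank of 452, the highest rank among the WT peaks near the 8 genes. *Gm10000*, whose start is the nearest to these upstream peaks, is the only other protein-coding gene in the *Gsc* region, and that start is at least 12026 bp from them.

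*Hhex* (chr19:37507377-37515218, plus strand), needed for liver and forebrain-inducing anterior endoderm, had the highest-ranking of the 42 peaks. It lay in the first intron at chr19:37510276 in DKO, where the height was 24.5 in DKO Flk1(+) and 0.295 in DKO ES, with rank 44 of 22733. The overlapping WT peak at chr19:37510328, 52 bp away, had a height of 9.29 in WT Flk1(+) and 1.07 in WT ES and ranked 3330 of 20410. The height was higher in DKO than in WT, and the authors' enrichment was 24.5 in DKO and 8.72 in WT. That enrichment takes an ES height below 1 as 1, so the DKO value only repeats the DKO height. The DKO height was 2.64 times the WT height, and 59 of the 9305 overlapping pairs of the whole lists had a larger ratio. The start of *Hhex* lay 2899 bp from the DKO peak in GENCODE and 945 bp by the authors' RefSeq distance, and the windows at these starts held 10 and 63 CpGs. The peak windows held 19 CpGs in DKO and 15 in WT.

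Neither *Hhex* intron window held AGATAA or TGATAA. The bases around the DKO position, chosen for display after the height was seen, hold CGATAA on the minus strand, read as TTATCG, which carries a CpG, and TGATAG on the plus strand, both in capitals.
Hhex, DKO peak in the first intron, chr19:37510176-37510376: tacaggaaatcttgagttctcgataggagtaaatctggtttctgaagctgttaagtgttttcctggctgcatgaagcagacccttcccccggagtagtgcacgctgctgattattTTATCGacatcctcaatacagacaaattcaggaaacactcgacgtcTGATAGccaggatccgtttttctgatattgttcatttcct
CGATAA began 15 bp from the DKO position and TGATAG began 9 bp from the WT position. Of the 100 highest-ranking DKO peaks 9 lacked AGATAA and TGATAA, and this peak was the only 1 of those with CGATAA. Over the lists, 3.73% of WT and 3.82% of DKO windows held CGATAA. Among the overlapping pairs, 148 had CGATAA without AGATAA or TGATAA in the WT window, and their median log2 DKO to WT height was −0.17, compared with −0.56 for the 4645 pairs with AGATAA or TGATAA and no CGATAA and −0.08 for the 4242 pairs with none of these sequences. All 418 pairs with CGATAA, with or without the other sequences, had a median of −0.34.

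*Hhex* had 2 further peaks, each called in 1 genotype. The WT peak at chr19:37517934, 2716 bp beyond the 3′ end, was 5.19 high in WT Flk1(+) and 0.774 in WT ES, with 3 CpGs and 3 motif matches, the nearest 7 bp from the centre. The DKO peak at chr19:37556403, 49.0 kb downstream of the start, was 6.70 high in DKO Flk1(+) and 0.696 in DKO ES, with 10 CpGs and 1 motif match 40 bp from the centre.

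*Cxcr4* (chr1:130484776-130488870, minus strand) had 1 peak of each list within 5 kb, at different sites. The WT peak at chr1:130489102, 232 bp upstream of the start, was 5.60 high in WT Flk1(+) and 1.65 in WT ES and held 23 CpGs. The DKO peak at chr1:130488067, 803 bp into the gene within its intron, was 6.11 high in DKO Flk1(+) and 1.91 in DKO ES and held 36 CpGs. These positions were 1035 bp apart, and neither window held the motif.

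A cluster of 5 WT peaks lay 36.6 to 45.1 kb downstream of the *Cxcr4* start, and 3 of them were overlapped by the 3 DKO peaks there. All 5 held the motif, with between 2 and 9 CpGs. The highest, 42.3 kb downstream at chr1:130446560, was 17.6 high in WT Flk1(+) and 7.51 in DKO Flk1(+), with 1.70 in WT ES and 0.185 in DKO ES. The next, 39.3 kb downstream, was 15.1 high in WT and 5.59 in DKO, with 1.27 in WT ES and 0.330 in DKO ES, and 78.2% of its WT window was marked as repeats in the reference. The WT heights were 2.35 and 2.69 times the DKO heights. The authors' enrichment was 10.4 in WT against 7.51 in DKO, and 11.8 against 5.59. It takes an ES height below 1 as 1, which applies to DKO ES at both sites, so the DKO enrichments only repeat the DKO heights. Against the measured ES heights the DKO ratios would be larger than the WT ratios at both sites, the opposite order. The order of the authors' enrichments therefore adds nothing to that of the heights. Between these peaks, at 40.1 to 40.2 kb, the heights were nearly equal, at 7.73 in WT Flk1(+) and 7.68 in DKO Flk1(+). The 2 WT peaks of the cluster without a DKO peak were 11.3 and 7.57 high. WT peaks at 24.8 kb downstream and 47.9 kb upstream, 6.01 and 8.08 high, were also called in WT alone and held the motif.

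Over the 8 genes the WT peaks had a median height of 7.15, compared with 7.74 for the whole WT list, and the DKO peaks had a median height of 6.32, compared with 6.91. The heights ran from 5.19 to 30.2 in WT and from 5.05 to 24.5 in DKO. Of the WT peaks 13 were in the higher-ranking part of the list when it was divided at its middle, and of the DKO peaks 7 were. By the authors' rank 4 WT peaks and 2 DKO peaks were in the top 10% of their list, and 2 and 5 were in the lowest 10%.

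Heights in ES cells were limited by the calling of peaks, since a site entered a list only with an enrichment over ES of at least 3.0. Low ES heights at peaks of low Flk1(+) height therefore follow from that threshold. The ES heights ranged from 0.640 to 7.07 in WT ES, with a median of 1.46 against 1.68 over the whole WT list. In DKO ES they ranged from 0.185 to 3.35, with a median of 1.76 against 1.58 over the whole DKO list. An ES height below 1 was found at 5 of the 24 WT peaks and 5 of the 18 DKO peaks, and at 16.2% and 18.8% of the whole lists. At such peaks the authors' enrichment takes the ES height as 1 and therefore equals the Flk1(+) height.

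**Figure D2:**
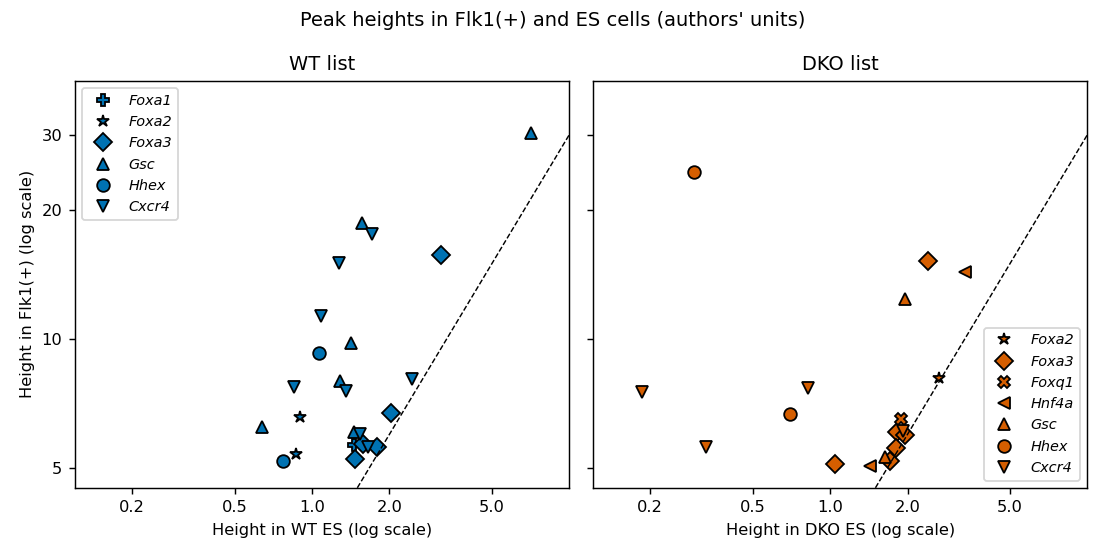
Height in the Flk1(+) profile (y axis) against height in the ES profile of the same genotype (x axis), both in the authors' units on log scales, for the WT peaks (left) and the DKO peaks (right) near the 8 genes. The dashed line is an enrichment of 3.0, the lowest in the lists. Of the 6 DKO peaks near *Foxa3* 4 lie close to the line, with enrichments of 3.03 to 3.35, and the *Hhex* intron peak of the DKO list, 24.5 against 0.295, lies far from it.

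The motif AGATAA or TGATAA was present in 15 of the 24 WT peaks, 62.5%, compared with 61.9% of the whole WT list. It was present in 7 of the 18 DKO peaks, 38.9%, compared with 38.1% of the whole DKO list. The shares near the 8 genes were therefore close to the background in both lists. The 8 gene regions, each reaching 50 kb beyond the gene, contain 934 matches of the motif, and 29 of them, 3.10%, lay in the window of a peak of either list. Of these 11 were near *Cxcr4* and 8 near *Gsc*. Windows at all protein-coding starts held the motif in 23.3% of cases. The forkhead sequence TGTTTAC on either strand was found in 0 of the 24 WT and 0 of the 18 DKO peaks, against 7.49% and 6.03% of the whole lists. These are descriptions of the letters in the windows and not of bound factors.

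Peaks close to a start and peaks far from any start differed in composition in the same way as over the whole lists. Within 1 kb of a protein-coding start lay 7 of the 24 WT peaks, 29.2%, against 25.0% of the whole WT list, and 11 of the 18 DKO peaks, 61.1%, against 45.3% of the whole DKO list. The 7 WT peaks had a median of 23 CpGs (range 19 to 58) and the 11 DKO peaks a median of 45 (range 20 to 65), and 1 of the 7 and 1 of the 11 held the motif. Of the peaks farther from any start, 14 of 17 in WT and 6 of 7 in DKO held it, with medians of 8 and 6 CpGs. Over the whole lists the motif was found in 75.5% of the WT and 57.9% of the DKO peaks farther than 1 kb and in 21.2% and 14.1% of those within 1 kb. The median number of CpGs in the whole lists was 36 (WT) and 38 (DKO) within 1 kb, and 6 and 8 farther away. The gap between WT and DKO medians within 1 kb near the 8 genes was thus not seen in the whole lists. The 11 DKO peaks include all 6 near *Foxa3* and the 2 near *Hnf4a*, which lie nearest to starts of other genes. Among them the windows at chr7:19609564 and chr7:19609675 overlap each other. The share and the CpGs of the 11 peaks therefore describe mostly neighbouring starts, and not those of the 8 genes.

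**Figure D3:**
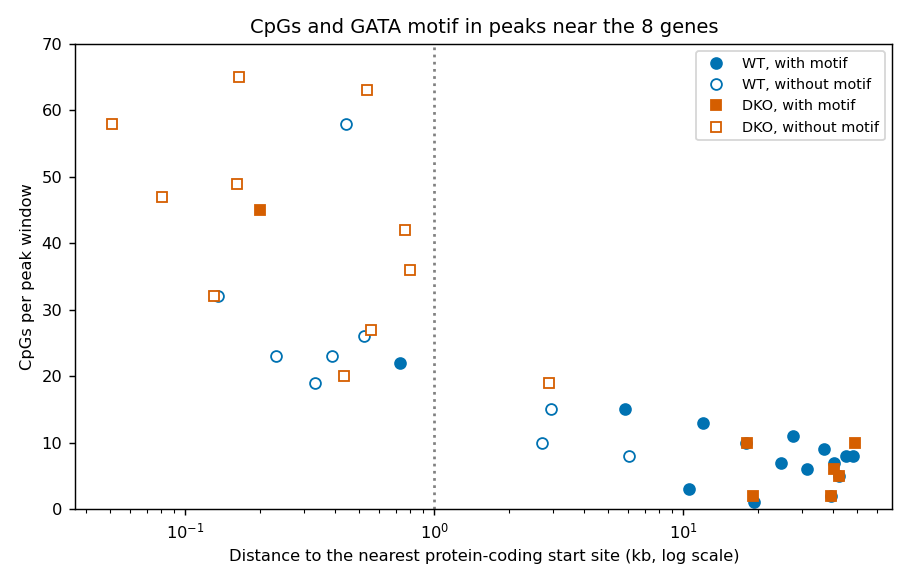
CpGs in the window of 250 bp to either side of the peak position (y axis) against the distance to the nearest protein-coding start in kb (x axis, log scale) for the 24 WT (blue circles) and 18 DKO (orange squares) peaks near the 8 genes, filled where the window holds AGATAA or TGATAA. The dotted line is 1 kb. All peaks with more than 19 CpGs lie to its left, and the filled points, except 1 WT peak at *Foxa1* and 1 DKO peak at *Foxq1*, lie to its right.

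Of the 24 WT peaks 11 were overlapped by a DKO peak, 45.8%, against 45.6% of the whole WT list, and of the 18 DKO peaks 10 were overlapped by a WT peak, 55.6%, against 45.1% of the whole DKO list. The unshared peaks of the 2 lists differed in how often they held the motif, as they did over the whole lists. Of the 13 WT peaks without a DKO peak 10 held the motif, with a median of 9 CpGs. Of the 8 DKO peaks without a WT peak 2 held it, with a median of 46 CpGs. Over the whole lists, 69.5% of the unshared WT peaks and 30.3% of the unshared DKO peaks held the motif. Their median number of CpGs over the whole lists is not given here.

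Height in the 2 genotypes was compared at the 11 overlapping pairs near the 8 genes. The authors' scaling of heights between libraries is not stated, and over all 9305 overlapping pairs the median DKO to WT ratio was 0.823, with 30.7% of pairs higher in DKO. Near the 8 genes 4 of 11 pairs were higher in DKO, and 8 of 11 had a ratio above the median of all pairs. Of these 8 pairs, 1 at *Foxa3* and the *Gsc* promoter pair were above it by only 0.010 and 0.049 in log2. The median log2 ratio was −0.044, or 0.24 relative to the median of all pairs, compared with −0.28 over all pairs. With positions within 100 bp the median near the 8 genes was −0.27, so it depends on the pairs that lie farther apart. The median of all pairs within 100 bp is not given here. The largest differences were toward DKO in the *Hhex* intron, with a log2 ratio of 1.40, and toward WT at the *Gsc* peak 19.1 kb upstream, with −1.28, and at 2 *Cxcr4* peaks, with −1.23 and −1.43. A WT peak 258 bp from the *Foxa3* region's high DKO peak at *Mypop* gave a log2 ratio of 1.42, but that DKO peak lay 4 bp from another WT peak of nearly equal height. The pair is counted among the 4 pairs higher in DKO and the 8 above the median.

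**Figure D4:**
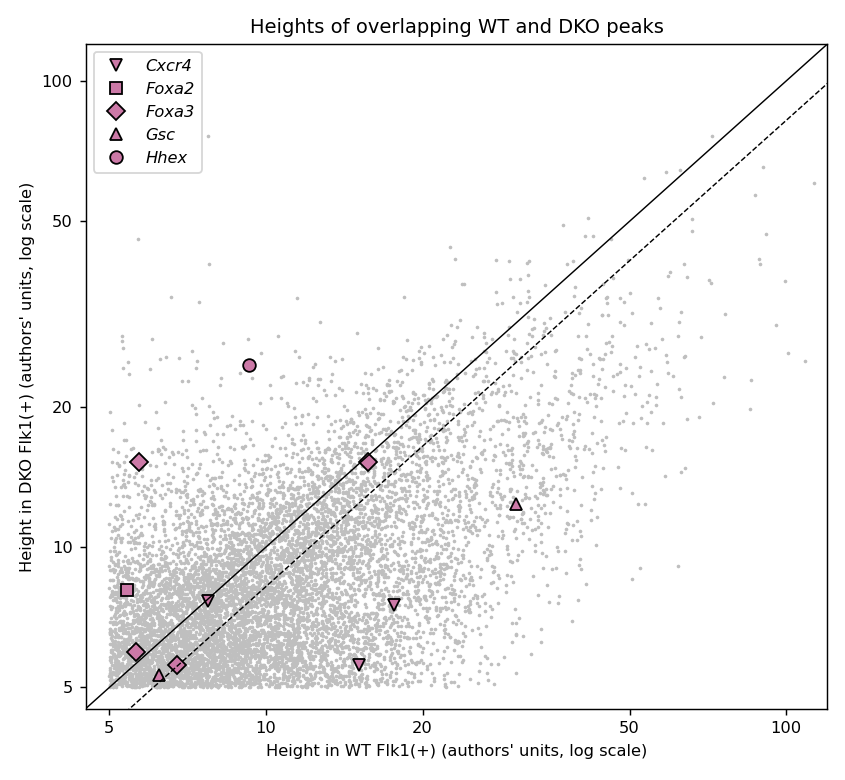
Height in DKO Flk1(+) (y axis) against height in WT Flk1(+) (x axis), in the authors' units on log scales, for all 9305 overlapping pairs (grey) and the 11 pairs near the 8 genes (purple symbols by gene). The solid line is equal height and the dashed line the median ratio of all pairs, 0.823. The *Hhex* point, 24.5 against 9.29, lies above both lines, and the highest *Gsc* point and 2 of the 3 *Cxcr4* points lie below both.

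Related genes were counted by the same distance of 5 kb. Of 18 other endoderm regulators 9 had a WT peak (50%) and 11 a DKO peak (61.1%), against 39.4% and 49.1% of all protein-coding genes. The highest WT peaks among them were at *Prox1* (29.4), *Foxh1* (28.5) and *Eomes* (19.6), and the highest DKO peaks at *Foxh1* (12.7) and *Prox1* (12.5). *Prox1* encodes a homeobox factor of liver and lymphatic cells, and *Eomes* a T-box factor of the early mesoderm and endoderm. Of 17 effector genes of liver and visceral endoderm, such as the retinol-binding protein gene *Rbp4* and the retinoic acid hydroxylase gene *Cyp26a1*, 5 had a WT peak and 5 a DKO peak (29.4% for either list). Of 39 other Fox genes 16 had a WT peak (41.0%) and 20 a DKO peak (51.3%).

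Of 18 mesoderm, blood and heart regulators, by comparison, 18 had a WT peak (100%) and 16 a DKO peak (88.9%). *Kdr*, the gene of Flk1 itself, had the highest peak of that group in both lists, with heights of 39.7 in WT and 28.2 in DKO. These were different sites, at position 76326165 in WT and 76358393 in DKO, so their heights are not a comparison of 1 site. Within 5 kb the highest WT peak of the 8 genes was the one in *Hhex*, at 9.29. WT peaks higher than 15 lay farther off, within 50 kb of *Gsc*, *Cxcr4* and *Foxa3*, the last of them at the start of *Mypop*. The share of all genes with such a peak within 50 kb is not given here.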

How the data were processed

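Gata4 ChIP-seq of 4 libraries was analysed from the authors' peak lists. Reads were handled with CASAVA 1.8.1 and cutadapt according to the submitters' processing notes and mapped to mm9; the aligner is not given in the sources used here. With the DNAnexus tools the authors called Flk1(+) peaks against the ES profile of that genotype. The deposited lists give the signal of each peak, as its height in the Flk1(+) and in the ES profile, the ratio (enrichment) of these heights, the −log10 of the authors' q-value, and a score used here as the rank, with 1 the highest. Names and distances of RefSeq genes within 5 kb are also the authors'. The lists carry no library name, and their genotype was taken from the number of peaks the study states. The study's methods give more mapped reads for the DKO Flk1(+) than for the WT Flk1(+) library, for the ES libraries read numbers are not given in the sources used here, and whether heights were scaled for depth is not stated. The lists hold no read count per peak, so that no interval could be given.

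All 43143 deposited sequences of 501 bases equalled the mm9 reference centred on the peak position. Peaks were shared when these windows overlapped by at least 1 bp. The motif, named WGATAA in the design, and CpGs were counted in the windows. Genes were those of GENCODE vM1, 1 entry per symbol, the longest. With 1 library per condition there was no test, and shares over all peaks or genes served as background. The genes, lists and displays were chosen with earlier results of these data known. Every peak within 5 kb and the highest peak within 50 kb of each gene were described, and of each related list the 3 genes with the highest peak could be named, except 1 item that is not reported here. The *Hhex* intron sequence and CGATAA were added after the values were seen, and *Foxred1* and *Foxred2*, which are not forkhead genes, were left out of the printed count. The overlap and motif steps recovered 800 of 800 and 1200 of 1200 planted items in simulated data. Python 3.11.15, NumPy 2.4.6, pandas 2.3.3 and Matplotlib 3.10.9 were used.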

Additional observations from a re-analysis of the deposited data

How the results depend on the processing

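Alternatives changed a single choice at a time, and 16 of the 42 alternative values were classed as the same as the main value. That class was broad. It includes shared WT peaks at 8 in place of 11 with positions within 250 bp. It also includes shared DKO peaks at 8 in place of 10 within 250 bp, and at 7 within 100 bp. Genes with a peak within 5 kb numbered 3 (WT) and 1 (DKO) in the higher-ranking part of each list, and 3 and 1 again at an enrichment of at least 5. The shares of all genes at these settings are not given here, so these lower counts cannot be called particular to the 8 genes. Peaks near the 8 genes numbered 13 (WT) and 10 (DKO) within 20 kb, 41 and 31 within 100 kb, 13 and 7 in the higher-ranking part or at an enrichment of at least 5, and 15 and 9 when the gene's start had to be the nearest. Shared WT peaks numbered 7 with positions within 100 bp, and in the higher-ranking parts 5 WT and 5 DKO peaks were shared. CGATAA in place of AGATAA or TGATAA was held by 2 WT and 3 DKO peaks. The median number of CpGs was 17 (WT) and 45 (DKO) within 5 kb, and 10 in the higher-ranking part of the DKO list. The median log2 DKO to WT height was −0.27 with positions within 100 bp and −0.14 with mutual nearest peaks, an alternative that, like CGATAA, was chosen after seeing the data. It was −0.044 from enrichment, where the median of all pairs was 0.09, and reversed to 0.24 after subtraction of the median of all pairs, which follows from that subtraction. No paired analysis was possible because each condition had 1 library. The Flk1(+) libraries differed in depth, with more mapped reads in DKO, and the part of depth in these values was not tested. Sites near the thresholds of height and enrichment can fall on either side of them.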
